A study of Danio rerio with 6 samples.

Results

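The transcripts of 7 genes that mark white blood cells were followed through the gonads and the egg of the zebrafish. The genes were chosen by identifier from the 32253 features of the expression table: spi1b (ENSDARG00000000767), ptprc (ENSDARG00000071437), lcp1 (ENSDARG00000023188), coro1a (ENSDARG00000054610), mpeg1.1 (ENSDARG00000055290), mpx (ENSDARG00000019521) and lyz (ENSDARG00000057789). All 7 were found, and all 7 were above 0 in each library. The libraries were made from testis dissected whole from males, ovary dissected whole from females, and mature oocytes squeezed from females, with 2 libraries per tissue. All fish were adult, wild type and of the TLAB strain, and no group carried a treatment or an altered allele. The labels do not say if a tissue's libraries stem from separate fish, so the p-values measure the spread between these libraries, which may be technical. Expression was measured by strand-specific, paired-end RNA sequencing and given by the authors as FPKM, a level scaled to transcript length and to library size.

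White blood cells, or leukocytes, move out of the blood into most organs, and resident macrophages are a regular part of the vertebrate ovary and testis. Myeloid cells, the branch that includes macrophages and neutrophils, depend on the transcription factor Pu.1, which spi1b encodes. Shared equipment of the whole lineage includes the surface phosphatase CD45 (ptprc) and the actin regulators L-plastin (lcp1) and coronin 1A (coro1a). The remaining genes serve killing and digestion: mpeg1.1 encodes perforin-2, a pore-forming protein of macrophages, mpx a myeloperoxidase of neutrophil granules, and lyz a lysozyme of phagocytes. In zebrafish larvae the promoters of mpeg1.1, mpx and lyz are the usual drivers for labelling macrophages and neutrophils. A squeezed egg is not expected to hold leukocytes, whereas both dissected organs contain blood, vessels and connective tissue.

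The 7 genes did not behave as a group. Both ptprc and lcp1 were higher in testis than in the female samples, lyz was higher in testis and in ovary than in the egg, and coro1a was lower in whole ovary than in testis and the egg. Whether lyz and coro1a passed the test thresholds in ovary against the egg depended on single libraries. By mean FPKM, testis was highest for 6 of the 7 genes, and the egg was highest for mpeg1.1. In bulk tissue, fewer cells of a type and less RNA per cell cannot be told apart.

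The testis labels were checked against the female ones with an egg gene and a meiotic gene. The check does not tell ovary from oocytes. Between them the egg gene overlapped, and the meiotic gene was under 1 FPKM in both. Bouncer, a protein of the egg surface, had 1.52 and 1.06 FPKM in testis, 491 and 676 in ovary, and 1234 and 652 in oocytes. The meiotic gene sycp3 had 68.4 and 63.8 FPKM in testis, 0.27 and 0.356 in ovary, and 0.521 and 0.438 in oocytes. Features above 0 numbered 27596 and 27058 in testis, 23318 and 23119 in ovary, and 22349 and 22464 in oocytes, so weakly expressed features were more often listed in testis. Read numbers are not given. From the steps of rarely read features, the depth of replicate 1 was estimated at 1.28 times that of replicate 2 in testis, 1.35 times in ovary and 0.844 times in oocytes. The estimate holds only if each library was scaled by its own read number alone, which is not stated.

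**Figure D1:**
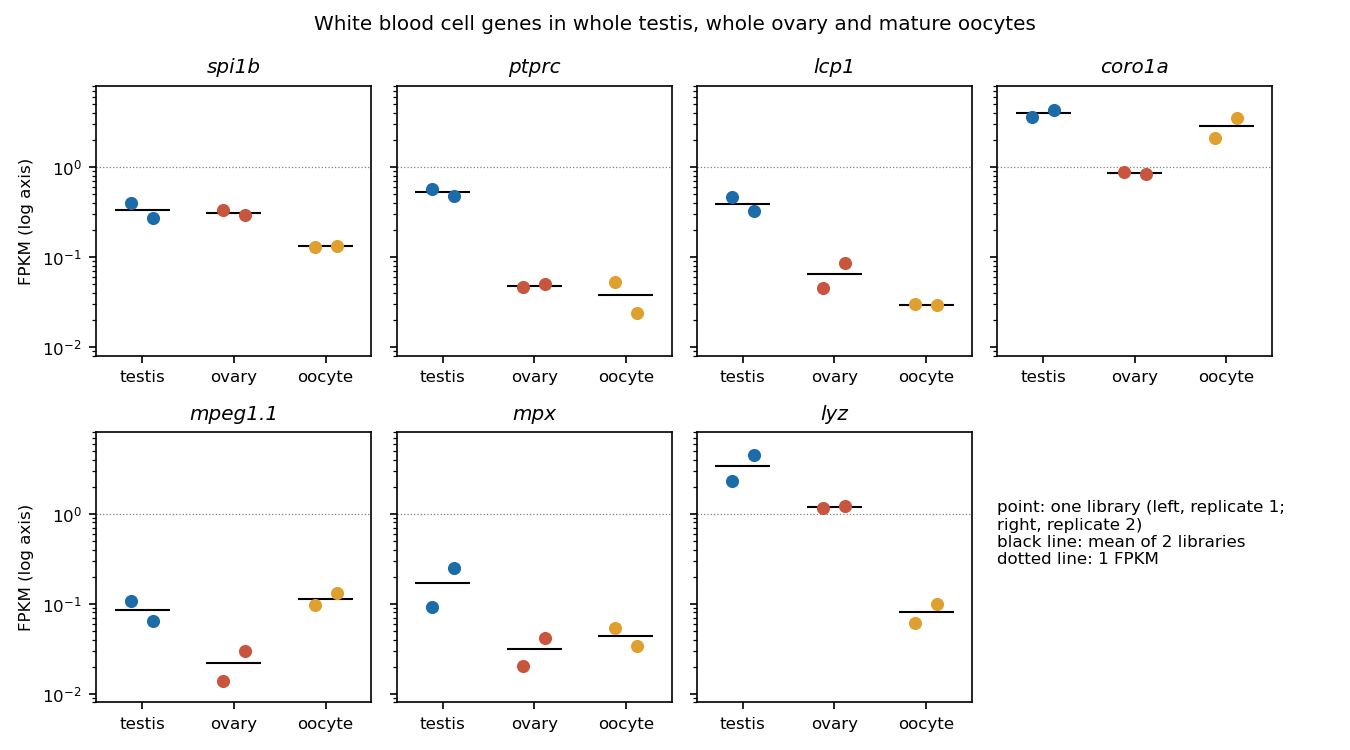
FPKM of each gene (log axis) in testis, ovary and oocyte libraries, with 2 points per tissue, a black line at their mean and a dotted line at 1 FPKM. Both testis points lie above both ovary points for each gene but spi1b, and the ovary points lie below the oocyte points for coro1a and mpeg1.1.

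Most of the genes were weakly expressed. Over the 6 libraries the values spanned 0.0137 FPKM (mpeg1.1 in ovary replicate 1) to 4.5 FPKM (lyz in testis replicate 2). Only coro1a and lyz reached 1 FPKM in at least 2 libraries, the threshold for the filtered fit of 13717 features on log2(FPKM + 1). The libraries at or above it were those of testis and oocyte for coro1a, and of testis and ovary for lyz. Calls of that fit against the tissue where each was low are thus not independent of the filter. The filtered fit leaves the other 5 genes untested. All 7 were therefore also tested among all 32253 features on log2(FPKM + 0.1), a fit added after the values were seen and called the unfiltered fit here. Both fits compared the tissues two-sided with limma. A call required a Benjamini-Hochberg adjusted p under 0.05 over all features and a log2 difference of at least 1 in size.

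Within the libraries, the share of features above 0 that were lower than coro1a was 79.5% and 81.7% in testis, 51.7% and 49.9% in ovary, and 59.8% and 65.2% in oocytes. For ptprc this share was 52% and 51.7% in testis, 24.3% and 22.3% in ovary, and 23.8% and 16.8% in oocytes. The common leukocyte phosphatase was thus a mid-ranked transcript in testis and one of the weaker ones in both female samples. In the egg, coro1a alone stood above the median of the listed features.

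The myeloid transcription factor gene spi1b had 0.398 and 0.275 FPKM in testis, 0.336 and 0.291 in ovary, and 0.131 and 0.135 in oocytes. Testis and ovary overlapped, and both lay above the egg. Against the egg the mean was 2.53 times as high in testis and 2.36 times as high in ovary. Neither difference was called in the unfiltered fit. Testis minus oocyte was 0.89 (SE 0.24), with a limma adjusted p of 0.0415 and a size under 1, and ovary minus oocyte was 0.83 (SE 0.24, limma adjusted p = 0.0855). Testis over oocytes was called without testis replicate 2 (1.1, limma adjusted p = 0.0469), with median-of-ratios scaling (1.21, limma adjusted p = 0.0135) and with a pseudocount of 0.01 (1.25, limma adjusted p = 0.0452). Under quantile normalization, though, testis minus oocyte was -0.00425. For testis minus ovary the difference was 0.0629, with a 95% interval of -0.61 to 0.73, and it was -0.57 under quantile normalization. Its paralog spi1a, which also encodes an Ets factor of the blood lineage, had 0.233 and 0.165 FPKM in testis, 0.0547 and 0.0725 in ovary, and 0.083 and 0.0578 in oocytes. It was not called, as its differences were under 1. For spi1a testis minus ovary was 0.86 (limma adjusted p = 0.0182) and testis minus oocyte was 0.81 (limma adjusted p = 0.0199).

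The pan-leukocyte gene ptprc separated testis from both female samples. It had 0.567 and 0.485 FPKM in testis, 0.0466 and 0.0502 in ovary, and 0.0528 and 0.0238 in oocytes. Both testis libraries were far above every other library, and ovary and oocyte overlapped. The mean in testis was 10.9 times that of ovary and 13.7 times that of oocytes. By the unfiltered fit ptprc rose in testis by 2.07 over ovary (SE 0.16, limma adjusted p = 0.00197) and by 2.18 over oocytes (SE 0.16, limma adjusted p = 0.00138). Ovary minus oocyte was 0.11, with a 95% interval of -0.34 to 0.56, and no difference was detectable.

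L-plastin, encoded by lcp1, bundles actin filaments in leukocytes. Its gene had 0.462 and 0.327 FPKM in testis, 0.0461 and 0.0852 in ovary, and 0.0299 and 0.0296 in oocytes. The groups did not overlap, and the tissues stood in the order testis, ovary, egg. In the unfiltered fit lcp1 rose in testis by 1.57 over ovary (SE 0.20, limma adjusted p = 0.00669) and by 1.92 over oocytes (SE 0.20, limma adjusted p = 0.00342). Ovary was not called against oocytes, with a difference of 0.34 and a 95% interval of -0.23 to 0.92.

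For ptprc and lcp1 both testis comparisons had a limma adjusted p under 0.05 in each of the 15 alternatives to the unfiltered fit, the highest being 0.0381. A pseudocount of 1, which compresses values under 1 FPKM, brought the differences under the minimum of 1. It gave 0.54 over ovary and 0.56 over oocytes for ptprc, and 0.39 and 0.44 for lcp1. Under quantile normalization lcp1 in testis minus ovary was 0.87.

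Coronin 1A controls actin turnover in T cells and phagocytes. Its gene coro1a was the most abundant of the 7 in the egg, and had 3.66 and 4.37 FPKM in testis, 0.888 and 0.838 in ovary, and 2.12 and 3.56 in oocytes. The testis mean was 4.65 times that of ovary, the ovary mean was 0.304 times that of oocytes, and the testis libraries lay just above the oocyte libraries. In the filtered fit coro1a rose in testis over ovary by 1.43 (SE 0.23, limma adjusted p = 0.0016). It fell in ovary relative to oocytes, with a difference of -1.02 (SE 0.23, limma adjusted p = 0.00865). Ovary was under the filter level for coro1a, so these 2 calls are not independent of the filter. Testis minus oocyte was 0.41, with a 95% interval of -0.15 to 0.97, and was called in both fits under quantile normalization (1.22 and 1.47). The unfiltered fit gave 2.09 for testis minus ovary and -1.56 for ovary minus oocyte, both called (limma adjusted p = 0.00804 and 0.0302).

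The coro1a call for ovary minus oocyte depended on single libraries, while its sign did not. In the filtered fit it was -0.74 without oocyte replicate 2 and -0.997 without ovary replicate 2, both under the minimum size. In the unfiltered fit the limma adjusted p was 0.0523 without oocyte replicate 2, 0.121 and 0.136 without ovary replicates 1 and 2, and 0.0767 and 0.0764 without testis replicates 1 and 2. With a block for the replicate number the unfiltered fit did not call ovary minus oocyte either. The call for testis over ovary held in each alternative to either fit.

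The macrophage gene mpeg1.1 had 0.106 and 0.0649 FPKM in testis, 0.0137 and 0.0297 in ovary, and 0.0958 and 0.13 in oocytes. Like coro1a it was lowest in whole ovary, where both libraries lay below all others, and testis overlapped with the egg. Neither comparison with ovary was called in the unfiltered fit, because both differences were under 1. Testis minus ovary was 0.6 (SE 0.16, limma adjusted p = 0.0455), and ovary minus oocyte was -0.81 (SE 0.16, limma adjusted p = 0.036). Testis minus oocyte was -0.2, with a 95% interval of -0.66 to 0.25. Calls for mpeg1.1 appeared with a pseudocount of 0.01 in ovary minus oocyte (-1.99), under quantile normalization in testis minus oocyte (-1.03), and with rescaling without features above 10000 FPKM in testis minus ovary (1.37). That last difference was -0.0515 under quantile normalization. The egg thus had more coro1a and mpeg1.1 by mean than whole ovary, while ptprc in the same egg libraries was at 0.0528 and 0.0238 FPKM. Which cells these transcripts come from was not measured.

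The symbol table gives the name MPEG1 to 3 identifiers. One of the others, ENSDARG00000043093, had 0.149 and 0.0611 FPKM in testis, 0.0412 and 0.0333 in ovary, and 0.15 and 0.0949 in oocytes, again with ovary below the rest. The remaining one, ENSDARG00000078569, was listed at 0 in 4 libraries and near 0 in the other two. How reads shared by such related genes were assigned is not given in the sources used here, so their levels are uncertain.

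Neutrophil myeloperoxidase, mpx, had 0.091 and 0.251 FPKM in testis, 0.0204 and 0.0419 in ovary, and 0.0537 and 0.0343 in oocytes. Both testis libraries were above the other 4, and they also lay far apart from each other. Testis minus ovary was 0.99 (SE 0.34, limma adjusted p = 0.0823) and testis minus oocyte was 0.85 (SE 0.34, limma adjusted p = 0.111), and neither was called. Without testis replicate 1 both were called, at 1.42 (limma adjusted p = 0.0155) and 1.29 (limma adjusted p = 0.0165), as they were with rescaling (1.87 and 1.6). Ovary minus oocyte was -0.14, with a 95% interval of -1.09 to 0.81. The symbol table lists this identifier as EPX, the name of the related eosinophil peroxidase, and gives the name epx to another, ENSDARG00000012535. That gene had 0.211 and 0.286 FPKM in testis, 0.0215 and 0.0273 in ovary, and 0.0115 and 0.00602 in oocytes, so it too was higher in both testis libraries than elsewhere.

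Lysozyme, which cleaves bacterial cell walls, separated both organs from the egg. Its gene lyz had 2.32 and 4.5 FPKM in testis, 1.16 and 1.22 in ovary, and 0.0603 and 0.0998 in oocytes. No groups overlapped, and the mean was 42.6 times as high in testis and 14.8 times as high in ovary as in oocytes. By the filtered fit lyz rose in testis over oocytes by 1.98 (SE 0.25, limma adjusted p = 0.000407) and in ovary over oocytes by 1.02 (SE 0.25, limma adjusted p = 0.0114). Oocytes were under the filter level for lyz, so these 2 calls are not independent of the filter. The unfiltered fit, whose smaller pseudocount compresses the low oocyte values less, gave 4.22 (limma adjusted p = 0.0024) and 2.84 (limma adjusted p = 0.0147). Testis over oocytes was called in each alternative to either fit.

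Ovary over oocytes was at the edge of the call for lyz. In the filtered fit the difference was 0.951 with median-of-ratios scaling, 0.8 under quantile normalization (limma adjusted p = 0.0792), 0.991 without oocyte replicate 1 and 0.998 without ovary replicate 2. In the unfiltered fit it stayed between 2.69 and 3.0 with any ovary or oocyte library left out, but the limma adjusted p was 0.0669 and 0.0622 without oocyte replicates 1 and 2, and 0.0781 and 0.0837 without ovary replicates 1 and 2. Testis minus ovary was 0.97 (SE 0.25, limma adjusted p = 0.0117) in the filtered fit, just under the minimum size, and 1.37 (limma adjusted p = 0.0522) in the unfiltered one. It was called in both fits with median-of-ratios scaling (1.3 and 1.83), under quantile normalization (1.66 and 2.19), with rescaling (1.75 and 2.09) and without testis replicate 1 (1.33 and 1.84).

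In testis against ovary, the unfiltered fit called 3 of the 7 genes, all higher (ptprc, lcp1 and coro1a), while it called 37.7% of all 32253 features, 16% higher and 21.7% lower. In testis against oocytes it called 3, all higher (ptprc, lcp1 and lyz), with 41.9% of features called, 19.7% higher and 22.2% lower. In ovary against oocytes it called 1 higher (lyz) and 1 lower (coro1a), with 22.9% of features called, 11% higher and 12% lower. The filtered fit tested coro1a and lyz alone and has little to say on the group. It called coro1a higher in testis than in ovary (60.2% of features called, 16.4% higher and 43.8% lower) and lyz higher in testis than in oocytes (67.9% called, 22.3% higher and 45.6% lower). For ovary against oocytes it called both, lyz higher and coro1a lower (49% called, 22.2% higher and 26.8% lower). Each had passed the filter only through tissues where it was high.

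**Figure D2:**
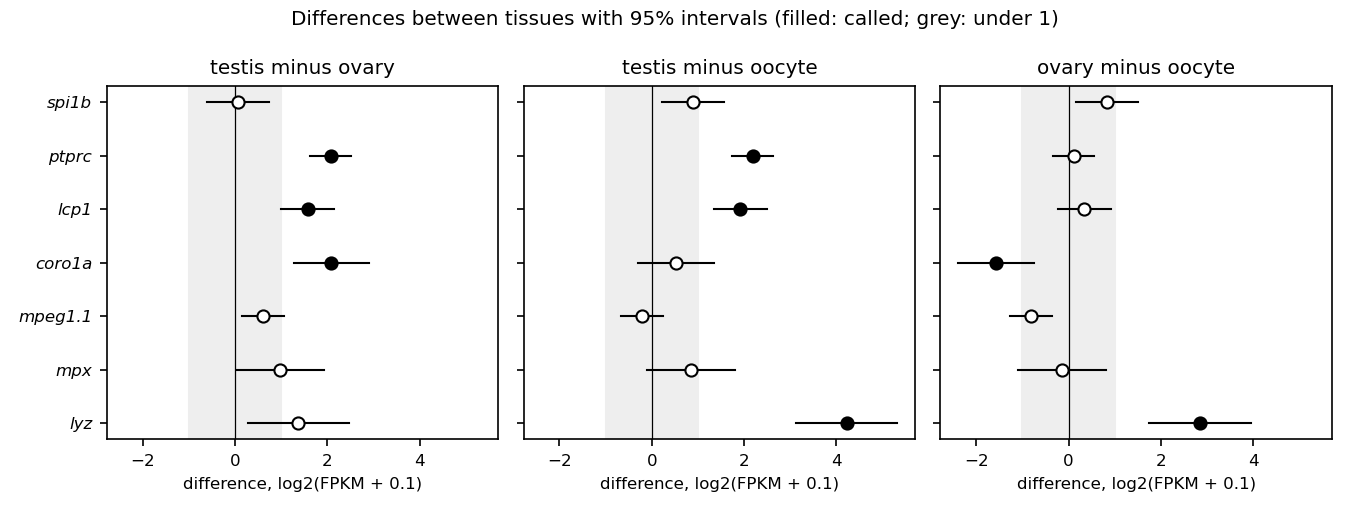
Difference between tissues on the log2(FPKM + 0.1) scale (horizontal axis) for each gene in the unfiltered fit, with the 95% interval as a line. Filled points were called, and the grey band marks differences under 1 in size. In testis minus ovary the filled points are ptprc, lcp1 and coro1a, in testis minus oocyte ptprc, lcp1 and lyz, and in ovary minus oocyte coro1a and lyz.

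Without a test, both testis libraries were above both ovary libraries for 6 of 7 genes and below for none, against 43.8% and 37% of the 28356 features above 0 in any library. Both testis libraries were above both oocyte libraries for 6 of 7 genes and below for none, against 47.1% and 34.3% of features. Ovary lay above the egg for 3 genes and below it for 2, against 30.7% and 30.2%, and those counts are near the background. The comparisons share libraries, and 7 genes are few and were chosen with earlier results of these data known.

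The scaling between tissues bears on the testis comparisons. Over the 13717 features of the filtered fit, the median difference was -0.82 for testis minus ovary, -0.79 for testis minus oocyte and -0.02 for ovary minus oocyte, so coro1a and lyz in testis stood further above the median feature than above 0. Over all features of the unfiltered fit the medians were 0, 0.02 and 0. Of these 32253 features 28356 were above 0 in any library. The rest have a difference of 0 and cannot be called, which draws the medians toward 0 and lowers the shares called. Under median-of-ratios scaling, quantile normalization and rescaling, testis stayed above ovary and above oocytes for ptprc, lcp1, coro1a and lyz in the unfiltered fit.

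Ratios within a library do not depend on the scaling between libraries. The ratio of spi1b to ptprc was 0.701 and 0.566 in testis, 7.22 and 5.8 in ovary, and 2.48 and 5.64 in oocytes. For lyz the ratio to ptprc was 4.08 and 9.28 in testis, 24.8 and 24.2 in ovary, and 1.14 and 4.19 in oocytes. For mpeg1.1 it was 0.187 and 0.134 in testis, 0.295 and 0.59 in ovary, and 1.81 and 5.47 in oocytes. For mpx it was 0.16 and 0.517 in testis, 0.437 and 0.835 in ovary, and 1.02 and 1.44 in oocytes. Per ptprc transcript, ovary had more spi1b, lyz, mpeg1.1, lcp1 and coro1a than testis in both libraries, while mpx overlapped. Among the 7 genes ptprc had the highest testis mean relative to ovary (10.9 times), which raises all these ratios in ovary. The ratio of lcp1 to ptprc stayed within a narrow band, at 0.814 and 0.674 in testis, 0.988 and 1.7 in ovary, and 0.566 and 1.24 in oocytes. That of coro1a to ptprc was 6.45 and 9.02 in testis, 19.1 and 16.7 in ovary, and 40 and 149 in oocytes. The ratio of mpeg1.1 to mpx was 1.16 and 0.259 in testis, 0.675 and 0.707 in ovary, and 1.78 and 3.8 in oocytes, and spread more between the testis replicates than between the ovary replicates. These ratios are levels per transcript length and were not tested, and those of ovary and egg rest on very low ptprc values whose counting error is not known.

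**Figure D3:**
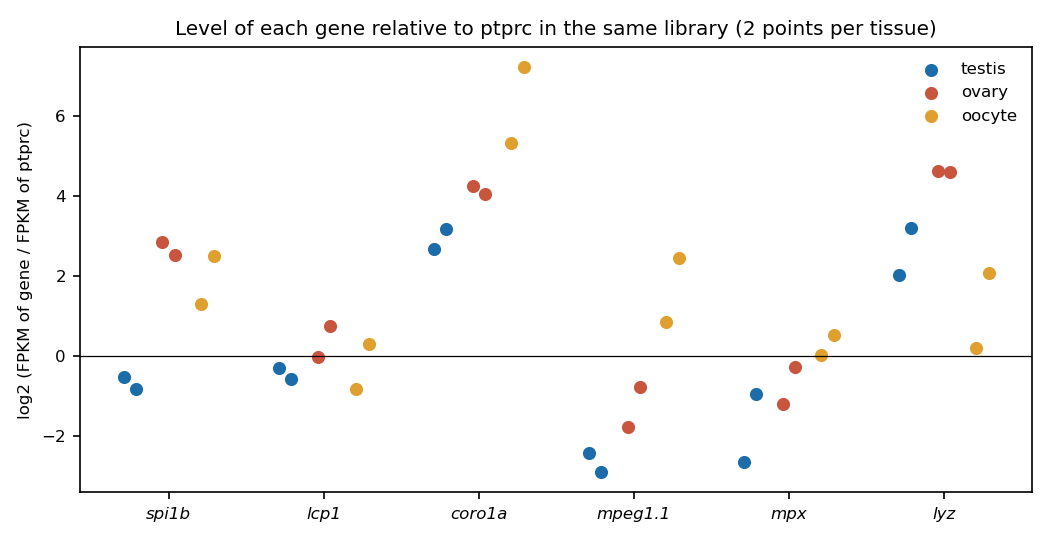
Level of each gene divided by that of ptprc in the same library, as a log2 ratio (vertical axis), with 2 points each for testis, ovary and oocyte. For each gene but mpx the ovary points lie above both testis points. The lcp1 points stay near 0 in each tissue, and coro1a, mpeg1.1 and mpx are highest in oocytes.

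The testis replicates differed by gene. Replicate 2 had more lyz, mpx and coro1a, and replicate 1 more ptprc, lcp1, spi1b and mpeg1.1. Replicate 2 also had more RNA of the red cell genes hbaa1, hbaa2, alas2 and gata1a. Of the other matched red cell genes hbae1.1 differed little (0.0988 and 0.119 FPKM in testis), and epb41b went the other way (0.296 and 0.164). The alpha globin gene hbaa1 had 16.4 and 73.9 FPKM in testis, 1.78 and 3.76 in ovary, and 0.368 and 0.184 in oocytes. The related alpha globin gene hbaa2 had 4.39 and 8.14 FPKM in testis, 0.392 and 2.42 in ovary, and 0.0342 and 0 in oocytes. The heme synthesis gene alas2 had 0.717 and 1.39 FPKM in testis, 0.0543 and 0.0539 in ovary, and 0.013 and 0.011 in oocytes. All 6 red cell genes with a matched identifier, of 10 listed, summed to 22 and 83.9 FPKM in testis, 2.38 and 6.48 in ovary, and 0.472 and 0.275 in oocytes, with 1 of the 6 listed at 0 in each oocyte library. In the unfiltered fit 2 of the 6 were called higher in testis than in ovary (alas2 and hbaa1). The hbaa1 call was lost when any 1 library but testis replicate 1 was left out. In testis against oocytes 5 were called higher, 2 when an oocyte replicate was left out, and 3 when testis replicate 2 or an ovary replicate was left out. None of the 6 was called in ovary against oocytes. Over all features 16% were called higher in testis than in ovary, 19.7% in testis than in oocytes and 11% in ovary than in oocytes. The part of blood content in the leukocyte genes was not tested.

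Genes of thrombocytes, the clotting cells of fish, differed from each other in the order of the tissues. The platelet glycoprotein gene gp9 had 0.232 and 0.403 FPKM in testis, 0.479 and 0.509 in ovary, and 0 and 0 in oocytes. The thrombopoietin receptor gene mpl had 0.0054 and 0.0023 FPKM in testis, 0.184 and 0.207 in ovary, and 0.0188 and 0.0136 in oocytes, and the integrin gene itga2b had 0.0647 and 0.0554 FPKM in testis, 0.0136 and 0.00788 in ovary, and 0.0141 and 0.00996 in oocytes. The 3 matched genes, of 5 listed, thus did not move together. The gene mpl was called lower in testis than in ovary, gp9 higher in testis than in oocytes, and both higher in ovary than in oocytes. Over all features 21.7%, 19.7% and 11% were called in these directions. The gp9 call for ovary over oocytes was lost without oocyte replicate 2.

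Connective tissue and germ cell genes were also unequal between the samples, while the sums of the vessel genes overlapped. The 8 matched connective tissue genes, of 12 listed, summed to 91.1 and 102 FPKM in testis, 22.3 and 32.7 in ovary, and 5.81 and 18.5 in oocytes. Of these 3 were called higher (acta2, col5a1 and dcn) and 1 lower (pdgfrb) in testis than in ovary, 4 higher and 1 lower in testis than in oocytes, and 2 higher and 1 lower in ovary than in oocytes. In testis against ovary the acta2 and col5a1 calls were lost when any 1 ovary or testis library was left out. The pdgfrb call was lost when any 1 library but ovary replicate 1 was left out, and dcn kept its call each time. The muscle actin gene acta2 had 65.4 and 74.5 FPKM in testis, 17.8 and 24.5 in ovary, and 0.485 and 0.227 in oocytes. Collagen gene col1a1a had 12.3 and 13.3 FPKM in testis, 1.69 and 3.28 in ovary, and 2.09 and 8.7 in oocytes, and col1a2 had 8.84 and 9.62 FPKM in testis, 1.09 and 2.3 in ovary, and 2.56 and 8.56 in oocytes, with no call for either. The 6 vessel genes, of 10 listed, summed to 3.84 and 4.76 FPKM in testis, 2.93 and 5.81 in ovary, and 5.36 and 3.46 in oocytes, with 1 higher (tek) and 1 lower (erg) in testis than in either female sample and none called in ovary against oocytes. Of these erg had 0.544 and 0.585 FPKM in testis, 2.13 and 4.84 in ovary, and 4.39 and 2.36 in oocytes, tek, an angiopoietin receptor gene, had 2.34 and 3.51 FPKM in testis, 0.383 and 0.469 in ovary, and 0.356 and 0.422 in oocytes, and kdrl, a VEGF receptor gene, had 0.643 and 0.454 FPKM in testis, 0.248 and 0.366 in ovary, and 0.53 and 0.456 in oocytes. The 9 germ cell genes, of 11 listed, summed to 464 and 419 FPKM in testis, 1262 and 1309 in ovary, and 256 and 336 in oocytes, and zar1, a gene of growing oocytes, had 1.93 and 1.67 FPKM in testis, 1102 and 1172 in ovary, and 11.3 and 9.06 in oocytes. The germ line RNA-binding gene dazl had 68.2 and 117 FPKM in testis, 57.9 and 33.1 in ovary, and 159 and 239 in oocytes, and the vasa gene ddx4 had 70.8 and 69 FPKM in testis, 21.2 and 19.8 in ovary, and 32.3 and 40 in oocytes. Among the 9 genes 5 were higher and 2 lower in testis than in ovary, 4 higher and 2 lower in testis than in oocytes, and 1 higher and 1 lower in ovary than in oocytes. Over all features 16% were called higher and 21.7% lower in testis than in ovary. The shares were 19.7% and 22.2% for testis against oocytes, and 11% and 12% for ovary against oocytes. The vessel counts lie near or below these shares. Both erg calls were lost when either testis library was left out, while tek kept its calls each time. The germ cell gene called lower in ovary than in oocytes was dazl, and its call was lost when any 1 library was left out. The part of organ makeup in the differences was not tested.

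Other leukocyte genes were taken from 5 lists (general, transcription factors, macrophage, neutrophil, lymphocyte) that name 67 genes. Of these 53 matched a single identifier in the symbol table, ignoring case, 2 matched several and 12 none. By the unfiltered fit 23 of the 53 were called higher in testis than in ovary and 2 lower (rac2 and mmp13a), where 16% of all features were called higher and 21.7% lower. Their median difference was 1.08, against 0 over all features, which include those at 0 in every library. In testis against oocytes 23 were called higher and 5 lower, where 19.7% of all features were higher and 22.2% lower. The median was 0.81, against 0.02 over all features. In ovary against oocytes 3 were called higher (c1qb, mmp13a and pax5) and 4 lower (cd247, il1b, ncf1 and runx3), where 11% of all features were higher and 12% lower, and the median was 0, as over all features. Those counts do not exceed the background. The 23 genes higher in testis than in ovary were 15 without ovary replicate 1, 10 with a pseudocount of 1 and 35 with rescaling. The 23 higher in testis than in oocytes were 10 with a pseudocount of 1. In ovary against oocytes, 1 was higher and 2 lower with a pseudocount of 1, and 7 and 7 with a pseudocount of 0.01. Genes lower in testis than in oocytes numbered 2 and 1 without oocyte replicates 1 and 2, and 1 and 0 without testis replicates 1 and 2. Genes lower in ovary than in oocytes numbered 2 without oocyte replicate 1 and 1 with either one of the ovary replicates left out. With each library left out in turn, 15 of the 23 genes higher in testis than in ovary, 17 of the 23 higher in testis than in oocytes and 2 of the 3 higher in ovary than in oocytes (mmp13a and pax5) kept their call every time, as did 1 of the 2 lower in testis than in ovary (mmp13a). None of the 5 lower in testis than in oocytes, nor of the 4 lower in ovary than in oocytes, did so. The lists were chosen with earlier results of these data known, so their counts are not an independent check of the 7 genes. Genes named here beyond the 3 most abundant of each list were chosen after their values were seen.

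Of the 10 matched macrophage genes 7 were called higher in testis than in ovary, 8 higher in testis than in oocytes and 1 higher in ovary than in oocytes, and none was called lower. Over all features 16%, 19.7% and 11% were called higher in these comparisons. The 7 were 4 with either one of the ovary replicates left out. The invariant chain gene cd74a, which serves antigen presentation, had 38.5 and 28.4 FPKM in testis, 6.16 and 7.27 in ovary, and 11.7 and 9.89 in oocytes. It rose in testis over ovary by 2.29 (limma adjusted p = 0.00274), and its paralog cd74b, with 12.4 and 10.6 FPKM in testis, 1.42 and 1.67 in ovary, and 4.69 and 2.4 in oocytes, by 2.81 (limma adjusted p = 0.00663). The complement gene c1qc, made by tissue macrophages, had 2.39 and 2.7 FPKM in testis, 1.68 and 2.08 in ovary, and 1.01 and 0.845 in oocytes, and was called for testis over oocytes alone. Its partner c1qb had 1.96 and 1.29 FPKM in testis, 0.539 and 0.554 in ovary, and 0.0741 and 0.0621 in oocytes, and was called in each comparison. Its call for ovary over oocytes was lost when any 1 ovary or oocyte library was left out, and that for testis over ovary when any 1 library but testis replicate 2 was left out. The macrophage growth factor receptor gene csf1ra had 0.119 and 0.104 FPKM in testis, 0.0347 and 0.022 in ovary, and 0.0247 and 0.0313 in oocytes. It was not called, as its differences were under 1. Testis minus ovary was 0.72 (limma adjusted p = 0.00346) and testis minus oocyte was 0.73 (limma adjusted p = 0.00282). Its levels are near or under the pseudocount of 0.1, which compresses such differences.

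The general list gave 4 genes higher in testis than in ovary and 1 lower, of 10, and the same numbers against oocytes. None was called in ovary against oocytes. Over all features 16% were called higher and 21.7% lower in testis than in ovary, and 19.7% and 22.2% against oocytes. The actin nucleation gene arpc1b had 5.23 and 4.26 FPKM in testis, 0.541 and 0.378 in ovary, and 0.255 and 0.267 in oocytes. It rose in testis by 3.12 over ovary (limma adjusted p = 0.00199). The gene rac2, which neutrophils need to migrate, had 1.87 and 1.96 FPKM in testis, 6.04 and 4.89 in ovary, and 3.13 and 5.05 in oocytes. It was lower in testis, with a difference of -1.46 from ovary (limma adjusted p = 0.0179) and of -1.02 from oocytes (limma adjusted p = 0.043). The first call was lost when any 1 ovary or testis library was left out, and the second when any 1 library but oocyte replicate 1 was left out. The Wiskott-Aldrich gene wasa, with 4.06 and 3.38 FPKM in testis, 0.769 and 1.57 in ovary, and 3.34 and 1.65 in oocytes, was not called.

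Among 8 transcription factor genes 4 were higher in testis than in ovary (cebpa, ikzf1, myb and runx3). Against oocytes 3 were higher in testis and 1 lower in ovary. Over all features the shares called in these directions were 16%, 19.7% and 12%. The gene runx3 had 1.82 and 2.17 FPKM in testis, 0.139 and 0.121 in ovary, and 0.879 and 1.18 in oocytes, and was the one that fell in ovary relative to oocytes (limma adjusted p = 0.00858), a call lost without ovary replicate 2. For myb, a regulator of blood stem cells, the values were 1.11 and 1.22 FPKM in testis, 0.00754 and 0.054 in ovary, and 0.131 and 0.135 in oocytes. The most abundant of the list, cebpb, was not called and had 2.98 and 3.45 FPKM in testis, 3.87 and 12.5 in ovary, and 3.16 and 1.77 in oocytes.

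The neutrophil list gave few calls, in both directions. Of its 10 genes 2 were called higher in testis than in ovary (cfbl and cybb) and 1 lower (mmp13a), and 3 were higher (cfbl, cybb and npsn) and 3 lower (il1b, mmp9 and ncf1) in testis than in oocytes. Ovary was higher than the egg in 1 gene (mmp13a) and lower in 2 (il1b and ncf1). Over all features 16% were called higher and 21.7% lower in testis than in ovary. The shares were 19.7% and 22.2% for testis against oocytes, and 11% and 12% for ovary against oocytes. For a list of 10 genes these counts lie near those shares. No call of il1b, mmp9 or ncf1 held with each library left out in turn. The cytokine gene il1b had 1.14 and 0.782 FPKM in testis, 0.492 and 0.352 in ovary, and 4.49 and 8.57 in oocytes. The gelatinase gene mmp9 had 2 and 2.46 FPKM in testis, 7.23 and 3.2 in ovary, and 6.58 and 9.89 in oocytes, and the oxidase gene cyba, which was not called, had 1.65 and 1.22 FPKM in testis, 0.41 and 0.765 in ovary, and 1.63 and 0.766 in oocytes. The collagenase gene mmp13a was high in ovary alone, with 0.109 and 0.0573 FPKM in testis, 1.67 and 1.62 in ovary, and 0.0144 and 0 in oocytes. The granule protease gene npsn had 1.5 and 1.73 FPKM in testis, 0.533 and 0.991 in ovary, and 0.23 and 0.203 in oocytes.

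Of 15 lymphocyte genes 6 were called higher in testis than in ovary and none lower (cd247, cd4-1, gata3, ighm, nkl.2 and rag2), 5 higher and 1 lower in testis than in oocytes, and 1 higher and 1 lower in ovary than in oocytes. The shares over all features were 16% and 21.7%, 19.7% and 22.2%, and 11% and 12%. The killer cell granule gene nkl.2 had 30.3 and 11.8 FPKM in testis, 0.0741 and 0.0999 in ovary, and 0 and 0.0355 in oocytes. The recombinase gene rag2 had 12.4 and 15.5 FPKM in testis, 0.668 and 0.24 in ovary, and 0.849 and 1.9 in oocytes, while its partner rag1 had 0.0901 and 0.0604 FPKM in testis, 0.0269 and 0.0188 in ovary, and 0.0466 and 0.0661 in oocytes. Lymphocytes need both proteins to build their receptors, and which cells the transcripts of either gene came from was not measured. The T cell receptor chain gene cd247 had 5.11 and 14.2 FPKM in testis, 1.49 and 1.19 in ovary, and 9.07 and 13.6 in oocytes, so testis and egg overlapped and ovary lay below both. The antibody heavy chain gene ighm had 1.56 and 1.9 FPKM in testis, 0.0662 and 0.0882 in ovary, and 0.013 and 0.00681 in oocytes.

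**Figure D4:**
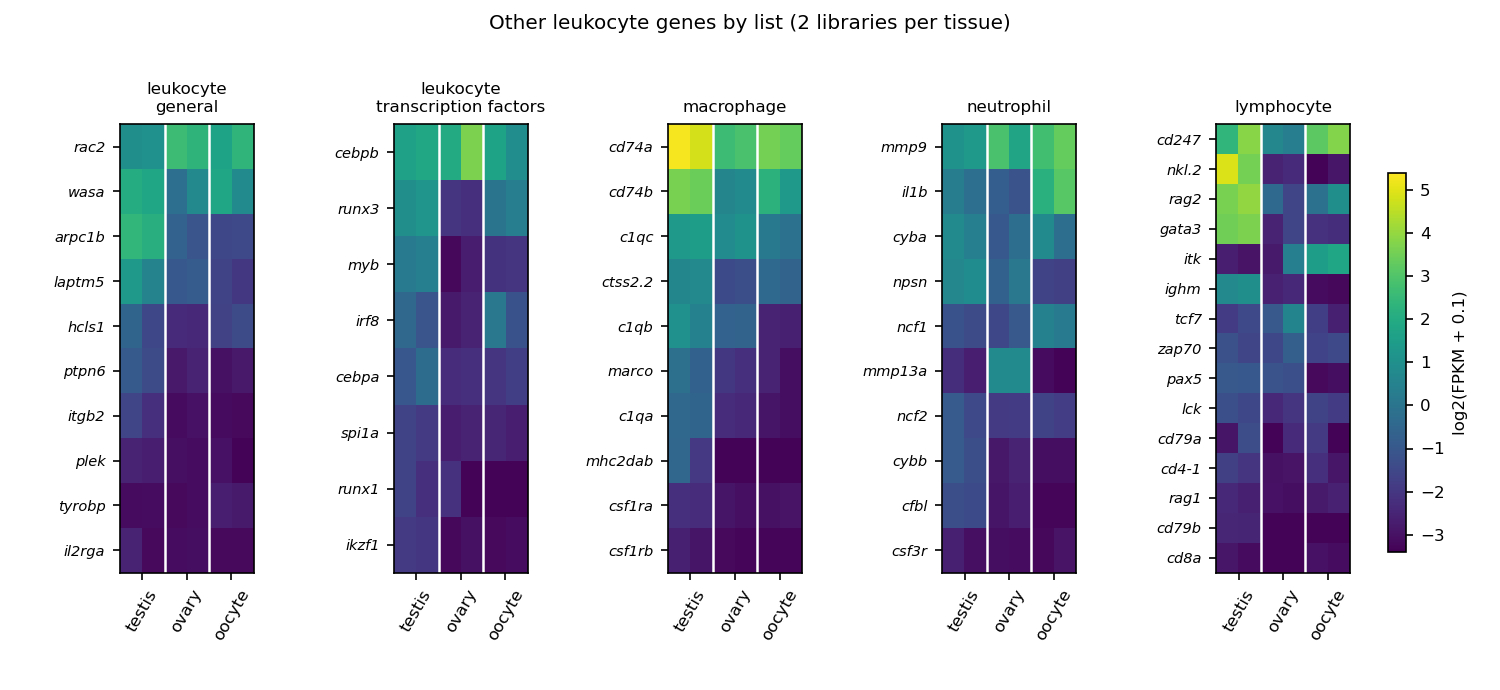
Level of 53 other leukocyte genes as log2(FPKM + 0.1) (colour), in 5 lists ordered by mean level, with 2 columns each for testis, ovary and oocyte. The leading macrophage genes cd74a and cd74b are brightest in testis, while il1b and ncf1 are brighter in oocytes than in testis and mmp13a stands out in ovary.

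The profiles most like that of ptprc were sought among 3015 features that passed the filter and had a mean log2(FPKM + 1) within 1 of its own. Each of these features reached 1 FPKM in at least 2 libraries, and ptprc in none. Features as low as ptprc in all libraries were thus left out. The 5 with the highest Pearson correlation over the 6 libraries were ngs, zgc:194621, RHCG, ENSDARG00000052021, which has no symbol in the table, and dcdc2b, with r of at least 0.999. Of these ngs had 2.02 and 1.58 FPKM in testis, 0.0368 and 0.0331 in ovary, and 0.0325 and 0.00393 in oocytes. Because the 4 female libraries are near 0 and the 2 testis libraries high, such an r is set by the contrast between testis and the rest, and libraries of a tissue are not independent points of it.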

How the data were processed

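Whole testis, whole ovary and mature oocytes were sequenced, with 2 libraries each, grouped by their labels. Per the labels' protocols, TRIzol RNA was treated with DNase and made into TruSeq libraries. The authors deposited FPKM values for 32253 features. The submitters' processing notes name TopHat, Bowtie2, Cuffnorm and GRCz10. Versions, settings, annotation and scaling between libraries are not given in the sources used here, and read numbers are unknown, so no counting error or floor is given. A symbol table matched 26411 identifiers. Coordinates and sequences were not used here.

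FPKM is not a count, so the log2 values of all 6 libraries were fitted in limma 3.58.1 (R 4.3.3) with a mean per tissue and moderated, trended variances. The filtered fit used a pseudocount of 1 and features at 1 FPKM or more in at least 2 libraries. An unfiltered fit with a pseudocount of 0.1 was added after the data were seen, since 5 of the 7 genes fail that filter. Calls needed an adjusted p under 0.05 and a log2 difference of at least 1. Differences on these scales understate changes of low genes, and fold values are ratios of mean FPKM. Both fits were also run on simulated data, with changes planted only in features of higher mean level than any of the 7 genes. That run thus does not test the fits at the levels of these genes. Alternatives were other pseudocounts and filters, median-of-ratios scaling over features above 0 in all libraries, quantile normalization, rescaling to a sum of 1000000 without features above 10000 FPKM, untrended variances, a block for the replicate number, fitting the compared tissues alone, no minimum difference, and leaving out each library, where the lone library left is assumed to vary like the other tissues. The text names all 7 genes, the 3 most abundant matched genes of each list, the 5 profiles most like ptprc, and bouncer, and some further genes of the lists chosen after their values were seen. The 7 genes and the lists were chosen with earlier results of these data known.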

Additional observations from a re-analysis of the deposited data

How the results depend on the processing

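For 72 results, 885 values under alternatives were computed. Of these 735 had the reported direction and side of the threshold, lay within 1.5 times a reported count, or had no threshold side. The last are differences of the 5 genes untested in the filtered fit, refitted with the same pseudocount and no filter. Such values could not differ by construction. Genes of the lists were followed as counts, and singly with each library left out. The cause of the changes was not tested, except that a pseudocount of 1 compresses values under 1 FPKM by construction. In the filtered fit, members called in ovary minus oocyte numbered 2, and 1 with no filter, with median-of-ratios scaling and under quantile normalization, and 0 to 2 with 1 library left out. Members called in testis minus oocyte numbered 1, and 2 under quantile normalization. Members called in testis minus ovary numbered 1, and 2 with a pseudocount of 0.1, median-of-ratios scaling, quantile normalization, rescaling without features above 10000 FPKM or no minimum difference, and 1 to 2 with 1 library left out. With a filter of 5 FPKM no member was left to test. In the unfiltered fit, members called in ovary minus oocyte numbered 2, and 1 with a pseudocount of 1 and with the replicate block, and 0 to 1 with 1 library left out. Members called in testis minus oocyte numbered 3, and 1 with a pseudocount of 1 and 5 under quantile normalization. Members called in testis minus ovary numbered 3, and 1 with a pseudocount of 1, 6 with rescaling, and 3 to 5 with 1 library left out.

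Signs turned only for differences that the unfiltered fit had not called. Under quantile normalization these were ptprc in ovary minus oocyte (-0.00682), spi1b in testis minus oocyte (-0.00425) and in testis minus ovary (-0.57), mpx in testis minus oocyte (-0.0146) and mpeg1.1 in testis minus ovary (-0.0515). The difference of mpeg1.1 in testis minus oocyte was 0.00484 with median-of-ratios scaling and 0.12 with rescaling. With 1 library left out, ptprc in ovary minus oocyte ranged over -0.0423 (oocyte replicate 2) to 0.26 (oocyte replicate 1), and spi1b in testis minus ovary over -0.14 (testis replicate 1), -0.0157 (ovary replicate 2) and 0.27 (testis replicate 2).

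The labels do not say if equal replicate numbers pair the libraries. Differences between replicates correlated across 13717 features at 0.243 for testis and ovary, -0.214 for testis and oocyte and -0.346 for ovary and oocyte. Such correlations can neither show nor exclude a shared origin, so pairing was not settled. With the replicate block the filtered fit called 8217, 9273 and 6679 features in testis minus ovary, testis minus oocyte and ovary minus oocyte, against 8262, 9311 and 6716 without it, and 8365, 9386 and 6819 with the oocyte numbers crossed. In the unfiltered fit the block gave 10536, 12129 and 4850 calls, against 12159, 13504 and 7402, and coro1a was then not called in ovary minus oocyte (limma adjusted p = 0.0582). It changed no other call of the 7 genes. The unfiltered fit called 7915 features in testis minus ovary with a pseudocount of 1, and 3481 to 5765 in ovary minus oocyte with 1 library left out. In the filtered fit 2251 features were higher and 6011 lower in testis than in ovary, against 3253 and 4771 with rescaling and 3483 and 3835 under quantile normalization, which gave 4231 and 4657 for testis against oocytes in place of 3056 and 6255. Rescaling of the unfiltered fit gave 7701 higher and 4431 lower for testis against ovary, in place of 5158 and 7001, and 8927 and 5668 for testis against oocytes, in place of 6343 and 7161. With 2 libraries per tissue and unknown read numbers, the lowest values are the least certain.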

Other observations

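Further lymphocyte and myeloid genes of the lists had unlike profiles, and these were picked after their values were seen. The T cell kinase gene itk had 0.0595 and 0.0308 FPKM in testis, 0.0456 and 1.21 in ovary, and 2.79 and 3.33 in oocytes. Its ovary libraries lay far apart, and testis was lower than oocytes (-4.44, limma adjusted p = 0.0398), a call lost when any 1 testis or oocyte library was left out. The macrophage and B cell factor gene irf8 had 0.629 and 0.371 FPKM in testis, 0.0475 and 0.07 in ovary, and 1 and 0.345 in oocytes, with no call. The B cell factor gene pax5 had 0.42 and 0.405 FPKM in testis, 0.347 and 0.322 in ovary, and 0.0108 and 0.0181 in oocytes, and rose in ovary over oocytes by 1.92 (limma adjusted p = 0.00506). The T cell factor gene gata3 had 11.2 and 12.6 FPKM in testis, 0.0733 and 0.236 in ovary, and 0.124 and 0.112 in oocytes.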
